A study of Mus musculus with 6 samples.

Results

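The 10 genes described here brake cytokine and inflammatory signaling, and their mRNA was measured in CD45+CD11b+ cells sorted from the mouse pancreas. They are the suppressors of cytokine signaling Socs1, Socs2, Socs3 and Cish, the mRNA decay factors Zfp36, Zfp36l1 and Zfp36l2, the MAP kinase phosphatases Dusp1 and Dusp2, and the glucocorticoid-induced gene Tsc22d3. They were chosen by symbol, and all 10 were found among the 21780 genes of the count table. Wild-type C57BL/6 J mice, male and female and aged 6 to 8 weeks, received PBS or whole β-glucan particles (WGP) into the peritoneum, and 7 days later the viable CD45+CD11b+ cells were sorted for mRNA sequencing. WGP are hollow yeast particles of β-glucan that phagocytes must ingest. There were 3 PBS and 3 WGP libraries, no engineered allele is named for any of them, and the study describes each sample as an independent animal of 1 experiment. The libraries held 35334645 to 40580936 counts in the PBS group and 38240913 to 43341834 in the WGP group.

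Cytokines act through receptors that carry Janus kinases (JAKs), which phosphorylate STAT transcription factors. STATs switch on SOCS genes, and the SOCS proteins then bind receptors or JAKs and shut the same signal down. SOCS1 is the main brake on interferon signaling, SOCS3 on IL-6 family and G-CSF receptors, CISH and SOCS2 on STAT5 signals such as those of GM-CSF, IL-2 and growth hormone. The ZFP36 proteins act later, by binding AU-rich elements in the 3′ UTRs of cytokine mRNAs and recruiting decay enzymes. DUSP1 and DUSP2 remove the activating phosphates of MAP kinases, and TSC22D3 (GILZ) is a glucocorticoid-induced protein that restrains NF-κB and AP-1. In macrophages the SOCS, ZFP36 and DUSP1 loops are fast, with the brake transcribed soon after the stimulus it limits.

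The promoters of 3 SOCS genes are shown so that the STAT-binding letters they carry can be read beside their changes. In RefSeq sequence (GRCm38.p6, 250 bases before to 50 after the start site), 8 of the 10 genes matched an entry. Socs2 and Zfp36l2 did not. The windows were chr16:10785487-10785786 on the minus strand for Socs1, chr11:117969317-117969616 on the minus strand for Socs3, and chr9:107296409-107296708 on the plus strand for Cish. Capitals mark an interferon-stimulated response element core (GAAA, any 2 bases, GAAA) in Socs1 and γ-activated sites (GAS, TTCNNNGAA) in Socs3 and Cish.
Socs1: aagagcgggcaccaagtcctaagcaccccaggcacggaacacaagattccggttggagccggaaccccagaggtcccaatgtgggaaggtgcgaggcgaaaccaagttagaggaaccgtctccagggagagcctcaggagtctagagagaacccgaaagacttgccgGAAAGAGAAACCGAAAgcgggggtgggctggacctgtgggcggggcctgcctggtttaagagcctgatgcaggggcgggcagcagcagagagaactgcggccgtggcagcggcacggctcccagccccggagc
Socs3: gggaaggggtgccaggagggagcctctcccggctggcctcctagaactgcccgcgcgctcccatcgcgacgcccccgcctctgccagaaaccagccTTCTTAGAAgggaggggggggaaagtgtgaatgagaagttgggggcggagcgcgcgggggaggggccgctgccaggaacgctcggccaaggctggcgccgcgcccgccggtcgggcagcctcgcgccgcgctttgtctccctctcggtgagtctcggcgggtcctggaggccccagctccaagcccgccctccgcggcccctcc
Cish: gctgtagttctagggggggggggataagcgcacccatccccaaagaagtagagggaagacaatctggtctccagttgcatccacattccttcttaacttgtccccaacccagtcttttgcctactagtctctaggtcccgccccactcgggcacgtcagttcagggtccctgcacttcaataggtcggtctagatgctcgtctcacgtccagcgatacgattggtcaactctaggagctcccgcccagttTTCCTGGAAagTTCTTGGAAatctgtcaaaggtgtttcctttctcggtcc
The Socs1 window held 2 response element cores, GAAAGAGAAA at position -83 and GAAACCGAAA at -77 from the start, which overlap each other, and no GAS letters. The Cish window held 2 GAS matches, TTCCTGGAA at +1 and TTCTTGGAA at +12, and the Socs3 window held 1, TTCTTAGAA at -154. Searched on both strands, the interferon core was present in 3.44% of 32851 promoters of this length and the GAS letters in 8.3%. Among the other genes, Zfp36 had a GAS match (TTCTGCGAA at -17) and a CArG box, the binding site of serum response factor (CCATAAAAGG at -58; 1.63% of promoters). Dusp1 had a cyclic AMP response element (TGACGTCA at -143; 1.79% of promoters). Of 3 Tsc22d3 promoters, 1 had a GAS match (TTCTGTGAA at -207), and Zfp36l1 and Dusp2 had none of the 4 motifs. A match is a stretch of letters and not a measured binding site.

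Several of these brakes carry the element that ZFP36 proteins read. The nonamer TTATTTATT was found on the sense strand of the 3′ UTR in 5 of the 10 genes and in 7.95% of 14319 tested genes with an annotated 3′ UTR. The 5 genes are shown with their first site (GENCODE vM21 transcripts on GRCm38), the nonamer in capitals. These sites lie at chr7:28376953-28376977 (minus strand, Zfp36), chr12:80108169-80108193 (minus strand, Zfp36l1), chr17:84184916-84184940 (minus strand, Zfp36l2), chr17:26506161-26506185 (minus strand, Dusp1) and chr9:107301379-107301403 (plus strand, Cish).
Zfp36: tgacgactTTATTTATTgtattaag
Zfp36l1: ctgttggaTTATTTATTttagaaat
Zfp36l2: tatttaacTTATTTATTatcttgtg
Dusp1: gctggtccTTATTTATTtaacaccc
Cish: tacagtatTTATTTATTtattctcc
All 3 Zfp36 family mRNAs thus carried the letters that their own proteins bind. The shorter pentamer ATTTA occurred 9 times in the 3′ UTR of Zfp36l1, 5 times in Zfp36l2 and 4 times each in Socs3, Dusp1 and Dusp2, against a median of 1 over all tested 3′ UTRs. Socs1 had none in a 3′ UTR of 1993 bases.

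The PBS libraries were not alike in their Y-linked genes. These summed to 234 and 248 CPM (counts scaled to a common library size) in PBS replicates 2 and 3, and to at most 0.0238 CPM in PBS replicate 1 and the 3 WGP libraries. With this difference as a term of the fit, the comparison rests on PBS replicate 1 against the WGP libraries. The log2 fold change of Socs1 was then 3.47 with an edgeR adjusted p of 0.0637, that of Cish 0.80 (0.335) and that of Tsc22d3 -0.79 (0.0839), so that none of the 3 genes whose changes are described next passed in that fit. Socs1 was at 6.06 CPM in PBS replicate 1, between its levels in the other 2 PBS libraries.

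The first question was which brakes changed in the sorted cells after WGP. Socs1 and Cish rose, no gene of the 10 fell past both thresholds, and Tsc22d3 fell by the adjusted p with a change smaller than 2-fold. The other 7 genes (Socs2, Socs3, Zfp36, Zfp36l1, Zfp36l2, Dusp1 and Dusp2) did not pass. A gene was called when its adjusted p in edgeR's quasi-likelihood test was at most 0.05 and its fold change was at least 2 (a log2 fold change of 1). The genes not described by position elsewhere lie, on GRCm38 (GENCODE vM21), at chr10:95385362-95417180 (Socs2, minus strand), chr11:117966079-117970047 (Socs3, minus), chr7:28376784-28380253 (Zfp36, minus), chr12:80107754-80113013 (Zfp36l1, minus), chr17:84183931-84187947 (Zfp36l2, minus), chr17:26505590-26562128 (Dusp1, minus) and chr2:127336159-127338376 (Dusp2, plus). All 10 genes passed the filter on low counts and were tested with 14429 genes. Thus 2 of 10 were called higher, where 4.53% of all tested genes were, and 0 of 10 were called lower, where 4.96% were (9.49% in either direction). At an unadjusted p under 0.05 in the edgeR test 2 genes were lower, Zfp36l1 and Tsc22d3, and 4 of the 10 passed in either direction, where 26% of all tested genes did. By DESeq2 or limma-voom 0 were called lower. By the adjusted p alone 2 were higher, where 7.54% of all tested genes were, and 1 was lower, where 6.81% were. The median log2 fold change of the 10 genes was 0.02, against -0.05 over all tested genes. The WGP libraries lay entirely above the PBS libraries for 3 of the genes (Socs1, Cish and Socs3) and entirely below for 2 (Zfp36l1 and Tsc22d3), and over all tested genes such separation was seen in 16% upward and 16.1% downward, 32% in all.

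**Figure D1:**
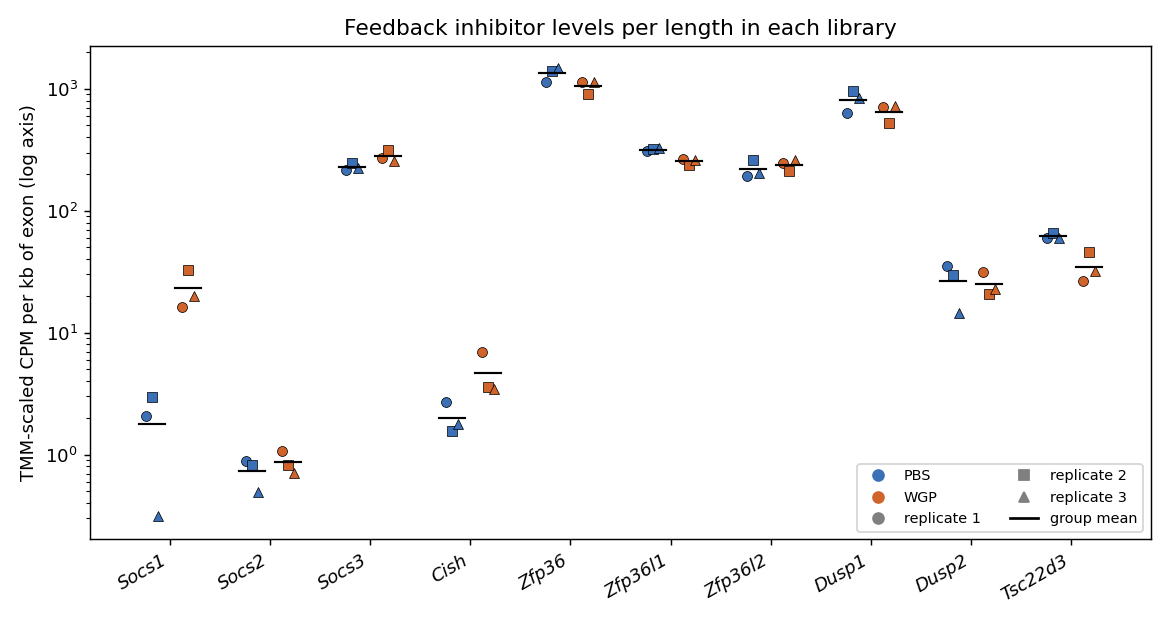
Level of each of the 10 genes in CPM per kilobase of exon (log axis) in the 3 PBS (blue) and 3 WGP (orange) libraries, with 1 point per library and a line at the group mean. Socs1 lies between 0.311 and 2.97 CPM per kilobase with PBS and between 16.2 and 32.9 after WGP, and the next largest difference is the 2.33-fold rise of Cish.

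Socs1 showed the largest change of the 10. Its level was 6.06, 8.65 and 0.904 CPM in PBS replicates 1 to 3 and 47.2, 95.8 and 58.4 CPM in WGP replicates 1 to 3. Every WGP library was therefore above every PBS library, with PBS replicate 3 the lowest by far and WGP replicate 2 the highest. The mean rose from 5.21 ± 3.94 to 67.1 ± 25.4 CPM (SD, n = 3 each), which is 12.9-fold. The log2 fold change was 3.69 (SE 0.65, 95% interval 2.25 to 5.13, edgeR quasi-likelihood adjusted p = 0.00354). The reads behind these levels were 233, 337 and 37 counts with PBS and 1738, 3972 and 2392 after WGP. The gene (ENSMUSG00000038037) lies at chr16:10782240-10785536 on the minus strand, and no other annotated exon overlaps it. In bulk RNA of sorted cells, a change in the share of a cell type and a change in RNA per cell cannot be told apart. Genes of low level were most often at 27 to 39 counts in the PBS libraries, and the 37 counts of Socs1 in PBS replicate 3 were 1.37 times that most frequent low count, a level at which counting error may be large. With the counts of each library divided by it, Socs1 stood at 5.97, 11.6 and 1.37 with PBS and at 96.6, 124 and 82.5 after WGP.

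Cish also rose, by less, and its call depended on single libraries. Its level was 17.2, 9.99 and 11.4 CPM with PBS and 44.9, 23.2 and 22.2 CPM after WGP. The groups did not touch, and WGP replicate 1 stood at close to the sum of the other two. The mean went from 12.9 ± 3.84 to 30.1 ± 12.8 CPM, 2.33-fold, and its log2 fold change was 1.22 (SE 0.34, 95% interval 0.46 to 1.98, adjusted p = 0.0386 in the quasi-likelihood test). The call was lost in 6 of 18 alternative analyses. Without WGP replicate 1 the log2 fold change was 0.82 with an edgeR adjusted p of 0.196, and without PBS replicate 2 or PBS replicate 3 the adjusted p was 0.14 and 0.102. Of the exonic bases of Cish (ENSMUSG00000032578, chr9:107296026-107302784, plus strand), 11.5% overlap exons annotated on the opposite strand, and whether the counting used strand is not given in the sources used here.

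Socs3, the brake on IL-6 family receptors, was by far the most abundant SOCS mRNA and did not pass the test. Its level was 620, 706 and 652 CPM with PBS and 789, 917 and 734 CPM after WGP. The lowest WGP library was just above the highest PBS library. The log2 fold change was 0.30 with a 95% interval of -0.03 to 0.63 (quasi-likelihood adjusted p = 0.232), so that a 2-fold rise lay outside the interval. Socs2 had the lowest mean per kilobase of the 10 in both groups. In PBS replicate 3 Socs1 was lower, at 0.311 against 0.497 CPM per kilobase. In CPM the PBS mean of Socs1 was also lower, at 5.21 against 6.96. The exons of Socs2 come to 9.531 kilobases and those of Socs1 to 2.908. Socs2 was at 8.38, 7.78 and 4.74 CPM with PBS and 10.2, 7.84 and 6.74 after WGP. Its groups overlapped, and its log2 fold change of 0.25 had an interval of -0.71 to 1.21 (adjusted p = 0.779), so that a 2-fold rise lay within the interval.

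Because Socs1 rose from a low level, the make-up of the SOCS mRNA pool was computed per length (CPM per kilobase of merged exons of all annotated transcripts). The sum of the 4 genes was 232 ± 15.2 CPM per kilobase with PBS and 310 ± 39.8 after WGP (SD, n = 3 each). Socs3 made up 98.1% ± 0.736 of this pool with PBS and 90.9% ± 1.24 after WGP. Socs1 made up 0.948%, 1.19% and 0.136% of it with PBS and 5.46%, 9.29% and 7.23% after WGP. The share of Socs1 was higher in each WGP library than in any PBS library, and Socs3 remained its main component in all 6 libraries. Cish went from 0.875% ± 0.31 to 1.54% ± 0.714, with overlapping libraries.

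**Figure D2:**
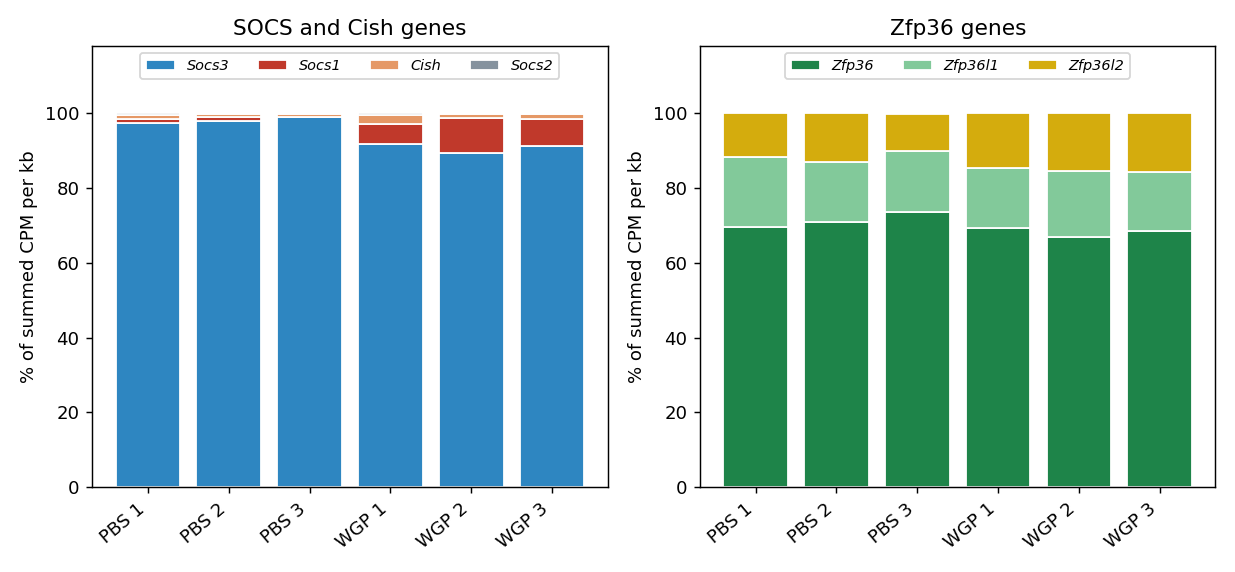
Share of each gene in the summed per-length level (CPM per kilobase) of its family, in percent, for the Socs and Zfp36 families in each of the 6 libraries, drawn as bars stacked to the whole. Socs1 takes 0.136% to 1.19% of the Socs pool in the PBS libraries and 5.46% to 9.29% after WGP, and Zfp36l2 takes 10.1% to 13.1% of the Zfp36 pool with PBS and 14.7% to 15.7% after WGP.

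Whether Socs1 moved apart from its relatives was tested on the ratio of raw counts within each library, for 6 pairs of genes. These ratios were not divided by exon length, so that they differ from ratios of the per-length levels. The Socs1 to Socs3 ratio had a geometric mean of 0.0055 with PBS and 0.0793 after WGP, a log2 difference of 3.85. The Socs1 to Cish ratio went from 0.289 to 2.25, a log2 difference of 2.96. With 1 library left out these differences ranged from 2.86 to 4.43 for Socs1 to Socs3 and from 2.03 to 3.76 for Socs1 to Cish. In both pairs every WGP library had a higher ratio than every PBS library, and the two-sided exact permutation p was 0.1 (0.2 after Benjamini-Hochberg adjustment over the 6 pairs), the smallest that 3 against 3 libraries allow. These tests therefore cannot pass 0.05 in this design. The Socs3 to Cish ratio fell by 0.89 on the log2 scale, from 52.5 to 28.4, with overlapping libraries (exact permutation p = 0.2, adjusted 0.3).

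The 3 ZFP36 family genes encode zinc finger proteins that destabilize AU-rich mRNAs, and none of them passed the edgeR test. Zfp36, which encodes tristetraprolin, was at 3950, 4870 and 5110 CPM with PBS and 3970, 3130 and 3930 CPM after WGP. It was the most abundant of all 10 genes per length in both groups, and its groups overlapped. The log2 fold change was -0.34 (95% interval -0.72 to 0.04, quasi-likelihood adjusted p = 0.254). Zfp36l1 was at 915, 951 and 979 CPM with PBS and 789, 708 and 776 CPM after WGP. All WGP libraries were below all PBS libraries, with a narrow spread in each group, and the log2 fold change was -0.32 (95% interval -0.63 to -0.02, adjusted p = 0.161). By the DESeq2 Wald test it was -0.33 with an adjusted p of 0.0159, which passes. Of its exonic bases, 55.9% overlap a long noncoding RNA annotated on the opposite strand (Gm26669), and if strand was ignored the reads of the pair cannot be told apart. Zfp36l2 was at 676, 914 and 716 CPM with PBS and 860, 741 and 916 CPM after WGP, with overlapping groups and a log2 fold change of 0.13 (95% interval -0.24 to 0.50, adjusted p = 0.692).

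All 3 intervals lie within a 2-fold change in either direction. The share of Zfp36l2 within the family was higher in each WGP library than in any PBS library. Zfp36l2 made up 11.7%, 13.1% and 10.1% of the summed per-length level with PBS and 14.7%, 15.6% and 15.7% after WGP. The Zfp36 to Zfp36l2 ratio of raw counts was 6.06 with PBS and 4.37 after WGP, lower in 3 of 3 WGP libraries (exact permutation p = 0.1, adjusted 0.2, the smallest raw p possible). The Zfp36 to Zfp36l1 ratio was 4.87 and 4.83 (exact permutation p = 0.8).

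Dusp1, a nuclear phosphatase that inactivates p38 and JNK, did not pass the test. It was at 2080, 3180 and 2800 CPM with PBS and 2350, 1730 and 2370 CPM after WGP, with overlapping groups. Its log2 fold change was -0.32 (95% interval -0.77 to 0.12, quasi-likelihood adjusted p = 0.356). Dusp2, a phosphatase of activated leukocytes also known as PAC-1, was at 70.8, 59.3 and 28.8 CPM with PBS and 63.4, 41.2 and 45.3 CPM after WGP. These groups overlapped fully, and the log2 fold change of -0.08 had an interval of -0.77 to 0.60 (adjusted p = 0.909). Dusp1 made up 96.7% of the summed per-length level of the pair with PBS and 96.3% after WGP.

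Tsc22d3 fell by the adjusted p alone. It was at 261, 286 and 258 CPM with PBS and 115, 198 and 140 CPM after WGP. The 3 PBS libraries lay close together, all above the WGP libraries, among which replicate 2 was the highest. The mean went from 268 ± 15.3 to 151 ± 42.5 CPM, 1.77-fold lower, and its log2 fold change was -0.83 (SE 0.20, 95% interval -1.26 to -0.39, quasi-likelihood adjusted p = 0.0174). It therefore passed the adjusted p, as 14.4% of all tested genes did, and not the fold threshold. Without WGP replicate 2 the log2 fold change was -1.07 with an edgeR adjusted p of 0.00279, past both thresholds, and without PBS replicate 2, WGP replicate 1 or WGP replicate 3 it was -0.78, -0.66 and -0.78 with adjusted p of 0.0746, 0.0712 and 0.0809. The gene (ENSMUSG00000031431) lies on chromosome X (140539528 to 140600659, minus strand), and its level did not separate PBS replicate 1 from the other PBS libraries.

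**Figure D3:**
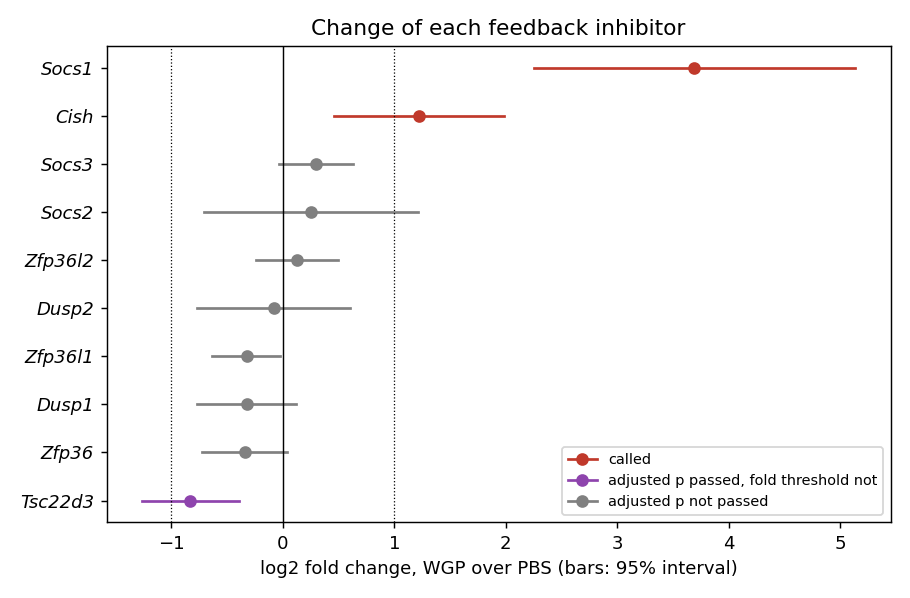
Log2 fold change of each of the 10 genes, WGP over PBS, with its 95% interval from the quasi-likelihood fit and dotted lines at a 2-fold change. The intervals of Socs1 (2.25 to 5.13), Cish (0.46 to 1.98), Tsc22d3 (-1.26 to -0.39) and Zfp36l1 (-0.63 to -0.02) exclude 0, and those of the other 6 genes include it.

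Per kilobase of exon, the order of mean levels in the PBS libraries was Zfp36 (1340 CPM per kilobase), Dusp1 (811), Zfp36l1 (317), Socs3 (228), Zfp36l2 (218), Tsc22d3 (61.8), Dusp2 (26.4), Cish (2.01), Socs1 (1.79) and Socs2 (0.731). In that order Socs3 and Zfp36l2 overlapped between libraries, and Socs1 overlapped both Cish and Socs2, which did not overlap each other. In the WGP libraries the order was Zfp36 (1060), Dusp1 (649), Socs3 (281), Zfp36l1 (253), Zfp36l2 (238), Tsc22d3 (34.8), Dusp2 (24.9), Socs1 (23.1), Cish (4.69) and Socs2 (0.868). Socs3, Zfp36l1 and Zfp36l2 overlapped there, as did Tsc22d3, Dusp2 and Socs1. Socs1 therefore moved from the bottom group, with Cish and Socs2, to the level of Dusp2.

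Over 9808 genes with a mean of at least 5 CPM, the genes whose log2 levels followed Socs1 most closely across the 6 libraries were Trim30d (Pearson r = 0.998), Ifit2 (0.995) and AA467197 (0.992). For Cish they were Psmd6 (0.989), I830077J02Rik (0.98) and Cyld (0.979). The 6 points fall into the PBS and WGP groups, so that a gene that differs between them tends to have a high r. At r of at least 0.95 there were 196 genes for Socs1 and 35 for Cish.

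Genes around each brake were then counted from lists of known members. Upstream of the SOCS genes, 6 of 26 cytokine receptor chains, JAKs and STATs were called higher and 1 lower, and 13 were higher by the adjusted p alone. Csf2rb, the shared chain of the GM-CSF, IL-3 and IL-5 receptors, went from 227, 211 and 206 CPM to 1160, 1120 and 968 CPM (log2 fold change 2.33, quasi-likelihood adjusted p = 1.23e-05). Among the others that rose were Stat2, Ifngr2, Il2rg and Jak2, with log2 fold changes of 1.29, 1.51, 1.75 and 1.5. Of 12 other inhibitors of JAK-STAT signaling, 1 was called higher. That gene, Ptpn1, a tyrosine phosphatase of JAK2 and TYK2, rose by 1.39 on the log2 scale (edgeR adjusted p = 0.000272). Ptpn6, which encodes SHP-1, passed the adjusted p with a log2 fold change of 0.74 (0.00777), and Usp18, a brake on the type I interferon receptor named after its values had been seen, did not (1.06, 0.0785). Of the 4 other SOCS family genes, 0 were called by edgeR, DESeq2 or limma-voom and 0 had an unadjusted edgeR p under 0.05, and their median log2 fold change was 0.30. Those of smallest p were Socs4 (0.43) and Socs5 (0.32). Without PBS replicate 3, 1 of these 4 was called higher, and without WGP replicate 3, 2 of the 12 inhibitors were. Without WGP replicate 2, 2 of the 26 receptor chains, JAKs and STATs were called lower.

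Among 7 known STAT5-driven genes, the group to which Cish belongs, 1 was called higher, with a median log2 fold change of -0.05. The called gene was Osm, which encodes oncostatin M, at 111, 109 and 88.9 CPM with PBS and 344, 147 and 202 CPM after WGP. As for Cish, WGP replicate 1 was the highest, and the call was lost without WGP replicate 1, PBS replicate 2 or PBS replicate 3 (0 of 7 called higher in each) and with the Y-linked term, where 0 were called higher and 1 lower. The kinase gene Pim1 had the next smallest p and did not pass (0.32). Among 7 known STAT3-driven genes, the group to which Socs3 belongs, 3 were called higher and 1 lower. Those higher were Il1rn, the IL-1 receptor antagonist (log2 fold change 4.19), Bcl3 (1.76) and Nfil3 (1.41), and the one lower was Etv3 (-1.07). The lower calls numbered 2 without PBS replicate 1 or WGP replicate 2, with each of the other 3 scalings, with DESeq2, with the counts divided by the low count and with a minimum of 10 counts in every library, and 0 with the Y-linked term. The change in Socs3, 0.30, was smaller than that of each of these 4, and the differences themselves were not tested.

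**Figure D4:**
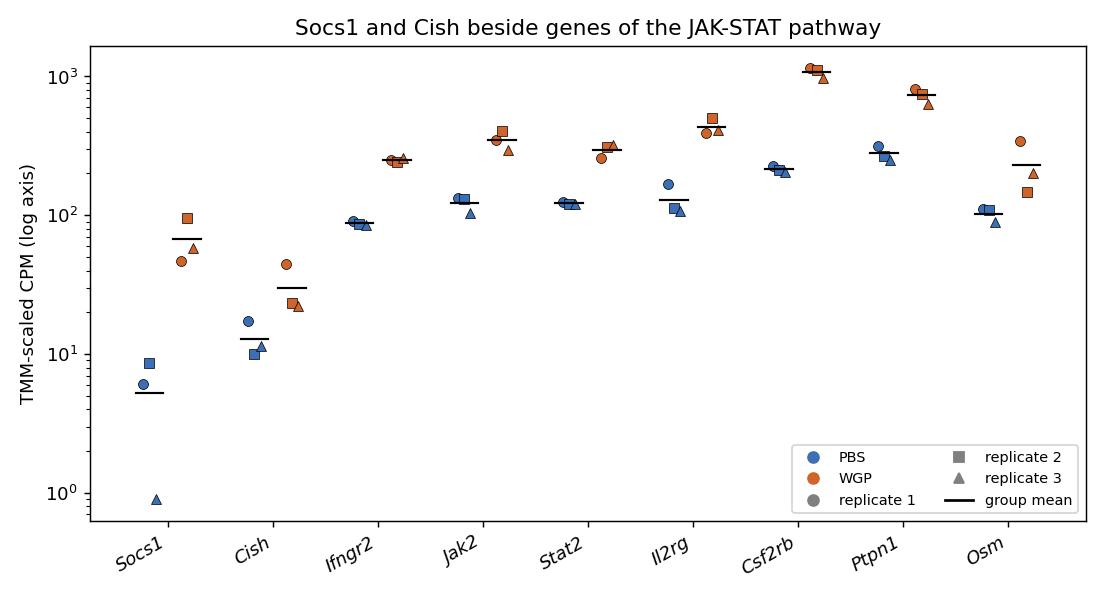
Levels in CPM (log axis) of Socs1, Cish and 7 genes of the JAK-STAT pathway in the 6 libraries, with blue for PBS, orange for WGP, a marker shape per replicate and a line at each group mean. WGP replicate 1 (circle) is the highest WGP library for Cish, Csf2rb, Ptpn1 and Osm, and WGP replicate 2 (square) for Socs1, Jak2 and Il2rg.

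Of 17 AU-rich mRNAs known as targets of the ZFP36 proteins, 4 were called higher and 4 lower, with a median log2 fold change of -0.58. Ptgs2, Il1b and Il1a were among those that rose (3.02, 2.99 and 1.65), and Il10, Plau and Ccl4 among those that fell (-3.62, -1.59 and -1.43). The targets thus moved in both directions. Of 13 other regulators of mRNA decay, 0 were called by edgeR, DESeq2 or limma-voom, 3 were higher by the adjusted p alone, and at an unadjusted edgeR p under 0.05 4 were higher and 1 lower. Those of smallest p were Btg1 (log2 fold change 0.92) and Rc3h2 (0.79). Without PBS replicate 1, 1 was called higher.

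Of 8 other MAP kinase phosphatases, 2 were called lower. Dusp8 went from 16.3, 23.1 and 22.8 CPM to 2.58, 4.32 and 1.25 CPM (log2 fold change -2.93, adjusted p = 0.00217 in the quasi-likelihood test) and Dusp10 had a log2 fold change of -1.62 (0.0309). Both act on p38 and JNK. The count was 1 with limma-voom and without PBS replicate 1 or any 1 of the WGP libraries. Of 16 MAP kinases and their activators, 1 was higher (Mapkapk3, 1.40) and 1 lower (Map2k6, -1.72). The lower call was lost with the filterByExpr filter and without WGP replicate 3 or any 1 of the PBS libraries, with 0 called. Of 14 genes of NF-κB, TLR and IL-1 inhibition, 5 were called higher. These were Il1rn, which the STAT3 list also holds, Tnip1 (1.74), Tnip3 (1.62), Irak3 (1.54) and Nfkbie (1.47). Of the same list 0 were called lower, and 1 was without PBS replicate 1, WGP replicate 2 or WGP replicate 3. At an unadjusted edgeR p under 0.05, 5 were lower, and 3 were by the adjusted p alone.

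Around Tsc22d3, 5 of 14 genes of the glucocorticoid receptor list were called lower and 1 higher, and with the Y-linked difference as a term of the fit 1 was called lower. The list is the receptor with genes known to be induced by glucocorticoids. Cd163, a hemoglobin scavenger receptor, fell by 4.5 on the log2 scale, Klf9 by 2.16, Zbtb16 by 2.01, Errfi1 by 1.43 and Mt1 by 1.37. Sgk1, a kinase, rose from 109, 120 and 92.5 CPM to 233, 282 and 240 CPM (1.23). Cd163 is also a marker of resident macrophages. Of the 3 other TSC22 domain genes, 0 were called by edgeR, DESeq2 or limma-voom, and 1, Tsc22d2, was lower by the adjusted p alone (log2 fold change -0.88, edgeR adjusted p = 0.00627). Tsc22d4 was at -0.25.

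**Figure D5:**
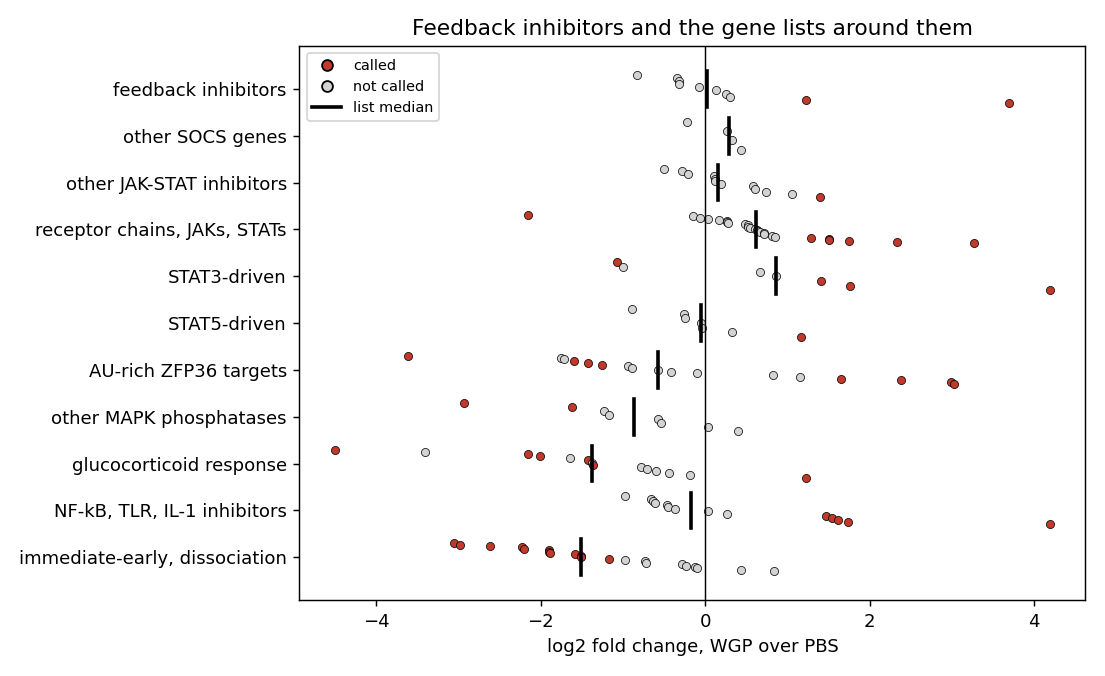
Log2 fold change (WGP over PBS) of each tested gene in the lists around the 10 brakes, with 1 point per gene (red where called) and a bar at the median of the list. The cytokine receptor chains, JAKs and STATs include 6 of 26 called higher, and the immediate-early genes have a median of -1.51 with 12 of 21 called lower.

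Zfp36, Dusp1 and Socs3 are also immediate-early genes, which rise when tissue is dissociated. Of 21 other genes of the immediate-early and dissociation response, 12 were called lower, with a median log2 fold change of -1.51. Rhob went from 734, 967 and 879 CPM in the PBS libraries to 246, 212 and 231 CPM in the WGP libraries. Fosb, Klf4, Egr1 and Klf6 fell by 2.62, 2.20, 1.89 and 1.58 on the log2 scale, and Jun fell by 1.90 (95% interval of the log2 fold change -2.30 to -1.5). Fos and Junb, named after their values had been seen, had log2 fold changes of -0.23 and -0.28 and did not pass, close to the -0.34 of Zfp36 and -0.32 of Dusp1. Also named after the values had been seen, Btg2 rose by the adjusted p alone (log2 fold change 0.84, edgeR adjusted p = 0.0212). Egr2, at 0.43, did not pass. The part of the dissociation response in the levels of the 10 brakes was not tested.

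The sorted cells differed in their marker genes between the groups. The 6 myeloid markers of the gate, 1 of them called higher, summed to 9310 to 15000 CPM with PBS and 22000 to 23600 CPM after WGP, so that the labelled cell type was present in every library. All 8 resident macrophage markers were called lower, with a summed level of 5170 to 13300 CPM with PBS and 936 to 1090 CPM after WGP. Of 8 markers of Ly6C-high monocytes, 6 were called higher (766 to 1360 CPM against 3850 to 4230). Within the PBS group the resident markers summed to 5170, 10300 and 13300 CPM in replicates 1 to 3, where Socs1 was at 6.06, 8.65 and 0.904 CPM. Their part in the changes of Socs1, Cish and Tsc22d3 was not tested.

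Markers of other cell types were summed in the same way. Eosinophil markers, 1 of 6 called higher, summed to 94.4, 47.1 and 23.1 CPM with PBS and to 154, 43.3 and 46.0 CPM after WGP, highest in the library where Cish was highest. The eosinophil granule gene Epx was at 0 in all 3 WGP libraries and in PBS replicates 2 and 3, and at 1.3 CPM in PBS replicate 1. Alox15, the called gene, was at 91.8, 21.4 and 29.2 CPM after WGP, Ccr3 at 32.1, 9.48 and 6.72, and Siglecf at 18.7, 7.52 and 6.43, each highest in WGP replicate 1. Il5ra and Prg2 were lower after WGP, with log2 fold changes of -2.01 and -5.04 that did not pass, and the list median was -0.62. Il5ra was at 58.3, 15.6 and 5.82 CPM with PBS and 11.2, 4.9 and 3.69 after WGP. Mast cell and basophil markers, 1 of 4 tested called higher, summed to 11.6 to 29.5 CPM against 32.9 to 47.7, also highest in WGP replicate 1, with Cpa3 and Mcpt4 at 0 in every library. The called gene, Kit, made up most of these sums, at 16.3, 7.85 and 11.7 CPM with PBS and 47.1, 32.7 and 38.9 after WGP. Mcpt8, Ms4a2 and Gata2 had log2 fold changes of -10.21, -6.79 and -2.69 and did not pass, and the list median was -4.74. T cell markers, 2 of 7 tested called higher, summed to 32.3 to 36 CPM against 28.8 to 65.8. NK cell markers, 2 of 8 called lower, summed to 60 to 272 CPM against 50.6 to 71.2. B cell markers summed to 383 to 2620 CPM against 92.3 to 181, highest in PBS replicate 1, and all 6 tested were called lower. Acinar cell markers, with all 7 tested called lower, summed to 1170 to 4480 CPM against 294 to 520. Neutrophil markers, 1 of 8 called higher and 1 lower, summed to 1920 to 4210 CPM against 2100 to 2330. Dendritic cell markers, 1 of 7 called lower, summed to 236 to 254 CPM against 106 to 197, and fibroblast and endothelial markers, 1 of 8 called higher, to 128 to 284 against 82.4 to 1830. Of the WGP libraries, replicate 2, where Socs1 was highest, had the highest sums of the T cell, NK cell, B cell, acinar, and fibroblast and endothelial markers. The part of these cells in the levels of the 10 genes was not tested.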

How the data were processed

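RNA of sorted CD45+CD11b+ pancreatic cells (3 PBS and 3 WGP libraries) was sequenced from polyA libraries. The authors aligned the reads to GRCm38.p6 with STAR 2.6 and deposited raw counts per gene from HTSeq 0.10.0; the annotation release and strand setting are not given in the sources used here. Coding genes whose RLE-scaled counts reached a sum of 10 across the 6 libraries (14429 of 21780 genes) were fitted with edgeR 4.0.16 (TMM scaling, quasi-likelihood test, Benjamini-Hochberg adjustment over all of them), which was first tested on simulated data. A gene was called at an adjusted p up to 0.05 with a log2 change of 1 or more in either direction; intervals are 95%. The study describes each sample as an independent animal of 1 experiment; the labels name triplicates only. The genes and lists were chosen with earlier results of these data known. Text named all 10 genes, and from each list up to 6 called genes (or, with fewer than 2, the 2 of smallest p), and for called genes the 3 most like them. Likeness used log2(CPM + 1). Alternatives used limma 3.58.1 (voom), DESeq2 1.42.0, other scalings and filters, a replicate block, a Y-linked covariate, library omission and, chosen after seeing the data, counts divided by the most frequent low count, which replaced a planned variant on a log scale. One of the gene lists is not reported here.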

Additional observations from a re-analysis of the deposited data

How the results depend on the processing

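Over 18 alternatives the log2 fold change of Socs1 lay between 3.19 and 4.27 (edgeR, DESeq2 or limma adjusted p 1.84e-08 to 0.0637) and the gene was called in 17; with the Y-linked covariate it was 3.47. That of Cish lay between 0.80 and 1.49 (adjusted p 0.0102 to 0.335), called in 12; it was 1.11 with library totals only, 1.17 with limma-voom, 0.80 with the Y-linked covariate and 0.82 to 1.49 with 1 library left out. Genes called higher among the 10 numbered 1 with library totals or limma-voom, 0 with the Y-linked covariate and 1 to 2 with 1 library left out; those called lower numbered 0 to 1 with 1 library left out and 1 with no fold threshold, where 2071 genes in all passed. Tsc22d3 lay between -1.07 and -0.66 with 1 library left out and passed the adjusted p in 14 of 18 alternatives. Signs turned only for changes that were never called: with the Y-linked covariate Socs2 was at -0.02 and Dusp1 at 0.05, and with 1 library left out Dusp2 ranged from -0.38 to 0.18, the log2 ratio difference of Zfp36 to Zfp36l1 from -0.1 to 0.05 and that of Dusp1 to Dusp2 from -0.74 to 0.13; the cause was not tested beyond the omitted libraries themselves. Library totals alone moved the median of all genes from -0.05 to -0.16 and the share of higher calls from 47.7% to 40.2%. Of 532 counts for the surrounding lists, 482 stayed within 1.5 times.

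Libraries with the same replicate number did not deviate together (correlations 0.04, -0.07 and 0.06), so no pairing by these numbers was seen. With the replicate number as a block, the log2 fold changes were 4.02 for Socs1, 1.18 for Cish and -0.86 for Tsc22d3 (edgeR adjusted p 0.00158, 0.0146 and 0.0118), 1341 genes were called in all, and no call among the 10 genes changed.

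The planned division of counts by the peak of low counts on a log scale was not run, because the peak fell near the edge of its search window in 4 libraries.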
